A study of Mus musculus with 20 samples.

Results

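Cytosolic ribosomal proteins were followed in the spinal cord of mice with experimental autoimmune encephalomyelitis (EAE), an inflammatory disease of the central nervous system that is induced by immunisation with a myelin peptide. The members were the array features whose platform gene symbol is Rpl or Rps followed by a digit, or Rplp followed by a digit, without the S6 kinases (Rps6k) and without pseudogene symbols (-ps). This rule gave 76 genes on 134 features, of 19087 genes on 32042 features with a single symbol. They comprised 44 large subunit genes on 76 features, 25 small subunit genes on 48 features and 6 paralogues on 8 features (Rpl3l, Rpl7l1, Rpl22l1, Rpl36al, Rpl39l and Rps27l). The remaining gene, Rps19bp1 on 2 features, encodes a protein that binds Rps19 and is not itself a ribosomal protein. It met the symbol rule and is counted with the members, but in neither subunit. Cytosolic ribosomal proteins named otherwise were read separately, of which Rpsa and Fau were on the platform under 1 symbol.

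Total RNA was hybridised to 20 two-colour arrays, each holding 1 animal in Cy5 and another in Cy3. All mice were C57BL/6 females, labelled as 60 days old, whereas the design text gives 2 to 4 months. The TG mice carried GFAP-IkappaBalpha-dn, a dominant negative inhibitor of NF-kappaB expressed in astroglia from the Gfap promoter, and came from heterozygous TG males bred to WT females. Their WT littermates were the controls. Mice of both genotypes were naive or had been immunised with MOG(35-55) in complete Freund's adjuvant together with pertussis toxin, and cords were taken 10, 17 or 80 days after induction (dpi). There are 23 named animals in the 8 groups: WT at 17 dpi has 2 of them (animals 1 and 4) and every other group has 3. The design text states 3 animals per time point. There were 14 arrays of a TG with a WT animal of the same time (3 naive, 4 at 10 dpi, 3 at 17 dpi and 4 at 80 dpi), and 6 arrays within a genotype.

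Every value below is a deposited log ratio, taken as log2, or a log2 fold change fitted to those ratios. The sources used here do not state the direction of the ratios. TG was placed over WT, immunised over naive, WT at 17 over WT at 80 dpi, and TG at 80 over TG at 17 dpi. Directions given below hold under that reading only, and the result with the ratios read as Cy5 over Cy3, the order in the sample titles, is given beside each main count. Under the reading used, skeletal muscle genes had medians of 2.03 and 2.19 on the arrays with TG animal 1-5 of 10 dpi in Cy5 and in Cy3, with the dye effect removed. In title order these arrays would have opposite signs for that animal. The direction itself was not tested. A ratio carries no signal level, so the presence of spinal cord markers, or of any gene, could not be checked. In whole tissue, fewer cells of a type and less RNA per cell cannot be told apart. Adjusted p-values are from limma's moderated test, two-sided, with Benjamini-Hochberg adjustment over all features tested. A feature was called at an adjusted p under 0.05. Arrays that share an animal were treated as independent in these tests. Shares of all features are of called features in the main fit. Counts at an unadjusted p under 0.05, and counts under other settings such as title order, have no such share beside them. They cannot be set against the shares given.

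The ribosome joins a small subunit, which reads the messenger RNA, to a large subunit, which forms peptide bonds, and each subunit holds a single copy of most of its proteins. The P-stalk of the large subunit, built of Rplp0 with pairs of Rplp1 and Rplp2, recruits the elongation factors. Transcripts of ribosomal proteins are among the most abundant of a cell, and in vertebrates most begin with a 5′ terminal oligopyrimidine tract (TOP), a C followed by a run of pyrimidines. Through it their translation is controlled together by mTOR and Larp1. Several ribosomal proteins have a second gene that is used in particular tissues or states, such as Rpl3l in striated muscle and Rpl39l in testis. Ribosomal protein genes also have many processed pseudogenes of nearly the same sequence.

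Annotated starts of some members, picked by hand, are printed here to set the shared TOP sequence beside starts in which it was not found. They are not a sample of the members, and several members with main results, such as Rps20, are not among them. Of the 75 ribosomal protein genes, 61 had an entry in the RefSeq promoter table (build GRCm38.p6), with 73 promoters in all. A C followed by at least 4 pyrimidines stood exactly at the annotated start in 17.8% of these 73 promoters and in 2.51% of all 32851 promoters of the table. Within 5 bases of the start, on the strand of transcription, the shares were 41.1% and 18.3%. By class, the share within 5 bases was 43.6% of 39 large subunit promoters, 42.3% of 26 small subunit promoters and 2 of 8 paralogue promoters. Annotated starts can be off by some bases, and a match is a description of letters only. Each window runs from 20 bases before the annotated start to base 10 of the transcript, 5′ to 3′, with the C and the pyrimidines that follow it in capitals. Pyrimidines directly before that C are in lower case, so an unbroken run can begin further upstream than the capitals. For Rpl35 and Rpl22l1 the run goes on past the window.
Rps15a (chr7:118116138-118116167, minus strand): gcccactctctttctgccatCTTCCCTCgc
Rpl35 (chr2:39005122-39005151, minus strand): gaagtcggccccgccctttcCTCTTTCTCT
Rps18 (chr17:33955656-33955685, minus strand): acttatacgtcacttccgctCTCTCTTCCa
Rps27 (chr3:90213639-90213668, minus strand): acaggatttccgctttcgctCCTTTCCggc
Rplp2 (chr7:141447631-141447660, plus strand): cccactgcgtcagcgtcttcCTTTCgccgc
Rpl22l1 (chr3:28805488-28805517, plus strand): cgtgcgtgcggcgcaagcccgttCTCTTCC
Rplp0 (chr5:115559447-115559476, plus strand): acgtcgtcttcgggtttcgaggaccgcctg
Rpl22, upstream start (chr4:152324416-152324445, plus strand): atcagcgctgcttctggaatgttccagctc
In Rps15a, Rpl35, Rps18, Rps27 and Rplp2 the base at the annotated start was the C of the marked stretch, in Rpl22l1 that C lay 3 bases after it, and in the windows of Rplp0 and Rpl22 no such run was found within 5 bases of the start.

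All 134 member features had a value on all 20 arrays. Each array held 43710 to 43894 values, and the median over all features lay between -0.02 and 0.02. The array of TG animal 3 with WT animal 4 at 17 dpi had the widest spread of ratios, with an SD of 1.07 over all features against 0.29 to 0.73 on the other 19 arrays. A dye effect was fitted for each feature, and was called above 0 for 19 member features and below 0 for 55, against 24.1% and 21.9% of all features. After its removal, the member medians were 0.06, 0.08 and -0.02 on the naive arrays of TG with WT, and 0.09, -0.42, 0.06 and -0.10 on those at 10 dpi. They were -0.28, -0.65 and -0.33 at 17 dpi and -0.12, -0.19, -0.34 and -0.20 at 80 dpi. All 7 arrays of the later times were thus below 0, while the earlier times had arrays on both sides of 0. Within a genotype the member median was 0.52 for WT at 17 dpi over naive, 0.62 for TG at 17 dpi over naive, 0.59 for WT at 17 over 80 dpi and -0.95 for TG at 80 over 17 dpi. These 4 arrays all placed 17 dpi above the other time. WT animal 1 was the only 17 dpi animal on the WT arrays among them, and TG animal 1 on the TG arrays. Their agreement is thus not from independent animals of 17 dpi. At 80 dpi over naive the median was 0.46 in WT, with 118 of 134 members above 0, and -0.01 in TG. The single WT array at 80 dpi was thus nearly as far above naive as the one at 17 dpi, while the fit over all arrays gave the members a median of 0.22. The subunits were furthest apart on the array of TG animal 3 with WT animal 4, where the large subunit median was -0.76 and the small subunit median -0.54.

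**Figure D1:**
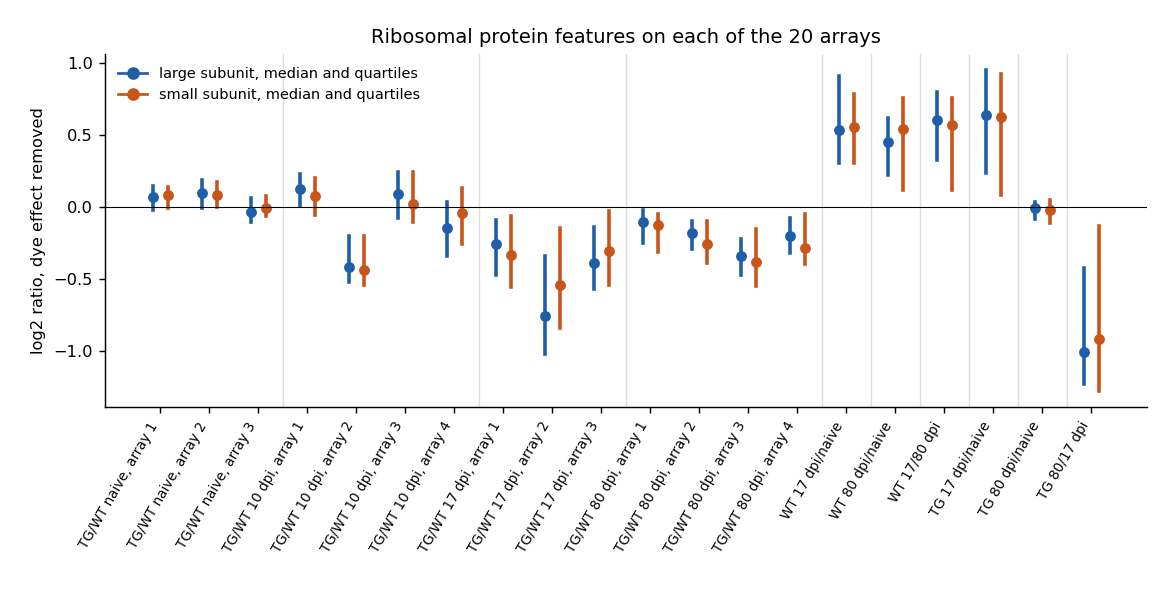
Median (point) and quartiles (line) of the log2 ratios of large subunit features (blue, 76) and small subunit features (orange, 48) on each of the 20 arrays, with the fitted dye effect removed. Both subunits lie below 0 on the arrays of TG with WT at 17 and 80 dpi, and above 0 on the arrays of WT and TG at 17 dpi over naive.

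In WT mice, ribosomal protein transcripts were higher at 17 dpi than in naive mice, in both subunits. The test called 92 of the 134 member features higher and 1 lower, against 8.42% and 7.8% of all features tested. The called features covered 37 of 44 large subunit genes and 24 of 25 small subunit genes. The median log2 fold change of the members was 0.92, a 1.89-fold difference, against -0.03 over all features. It was 0.95 for the large subunit and 0.94 for the small. On the only direct array, of WT animal 1 at 17 dpi with naive animal 2, the member median was lower, at 0.52 with the dye effect removed. The fitted value also draws on arrays that link the groups indirectly. With the ratios in title order no member was called higher and the median was -0.11. The 5 highest were Rps20, Rps15a, Rpl22, Rpl35 and Rps27l.

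Rps20, a protein of the small subunit head, stood at 1.64 on the array of WT at 17 dpi over naive, at 1.03 on that of WT at 80 dpi over naive and at 1.25 on that of WT at 17 over 80 dpi. The fit over all arrays put it 1.91 ± 0.21 (SE) above naive at 17 dpi, which is 3.76-fold (limma adjusted p = 5.7e-05). The 3 arrays thus placed both EAE times above naive and 17 above 80 dpi. WT animal 1 was the only 17 dpi animal on these arrays. Rps15a, another small subunit protein, reached 1.26, 0.71 and 1.28 on the same 3 arrays, with a fitted value of 1.68 ± 0.20. Rpl22, an RNA-binding large subunit protein without which mice are viable, gave 1.20, 0.89 and 0.97 and a fitted 1.62 ± 0.18. Rpl35, which sits by the exit tunnel of the large subunit, gave 1.56, 0.79 and 1.09, with a fitted 1.61 ± 0.18. These 3 genes had the same order as Rps20, with naive below both EAE times and 17 dpi above 80 dpi. The only called member below naive was a second feature of Rps15a, at -0.78 ± 0.19 (limma adjusted p = 0.0115).

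In WT mice, members were lower at 80 than at 17 dpi. Between 17 and 80 dpi in WT, 62 member features were called lower and none higher, against 4.05% of all features called lower. All 62 were among those called higher at 17 dpi. Both comparisons use the same 17 dpi estimate with opposite signs, so an error in it would also give such an overlap. No share of this overlap over all features is given. Their genes numbered 30 of the large subunit and 16 of the small. The member median was -0.64, against 0.03 over all features, and -0.53 in title order, where no member was called. Without WT animal 13 of 80 dpi, the number called lower was 10. Without WT animal 15 of 80 dpi it was 37. Rps20 was again first, at -1.46 ± 0.21, followed by Rpl22l1 at -1.30 ± 0.26, Rpl35 at -1.25 ± 0.18, Rpl24 at -1.25 ± 0.21 and Rpl35a at -1.21 ± 0.33. Against naive, no member was called at 80 dpi in WT, against 1.09% of all features called in either direction. An unadjusted p under 0.05 was seen for 30 members, a count with no share of all features beside it. The member median was 0.22. In title order that median was -0.68. On the array of WT at 17 over 80 dpi, red blood cell genes had a median of -1.59, meningeal genes -0.64 and macrophage and microglia markers 0.13. Their part in the result was not tested.

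TG mice had the same direction at 17 dpi. There, 57 member features were called higher than in naive TG mice and 3 lower, against 6.88% and 9.88% of all features. The called features covered 24 large subunit and 18 small subunit genes, and 55 of the 57 were also called higher in WT. The member median was 0.56, or 1.47-fold, against 0.02 over all features. Title order gave 0.12 and no member called higher. The result rested on TG animal 1, which was on both arrays that link TG at 17 dpi to another time: without that animal none was called and the median was 0.24. Without TG naive animal 5, the other animal of the direct array, none was called either, and without TG naive animal 8 the number was 28. The highest in TG were Rps27l at 1.46 ± 0.22, Rpl22l1 at 1.25 ± 0.26, Rpl35 at 1.22 ± 0.18, Rpl35a at 1.16 ± 0.33 and Rpl30 at 1.13 ± 0.21. Rps27l, a copy of Rps27 that p53 induces, gave 1.10 on the array of TG at 17 dpi over naive and -1.25 on that of TG at 80 over 17 dpi. The 3 features called lower were 1 each of Rpl13, at -0.41 ± 0.10, Rpl35a, at -0.34 ± 0.08, and Rpl11, at -0.30 ± 0.08.

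From 17 to 80 dpi in TG mice, 58 member features fell and 3 rose, against 4.13% and 6.63% of all features. Of the features called higher at 17 dpi, 50 were among the 58. As in WT, both comparisons use the same 17 dpi estimate with opposite signs, so the overlap is not independent. The member median was -0.63, against -0.02 over all features, and -0.61 in title order, where none was called. The lowest were Rpl35 at -1.31 ± 0.18, Rps27l at -1.26 ± 0.21, Rpl22l1 at -1.21 ± 0.26, Rps20 at -1.13 ± 0.21 and Rpl23a at -1.13 ± 0.22. The 3 that rose were features of Rpl35a (0.40 ± 0.08), Rpl11 (0.29 ± 0.08) and Rps12 (0.27 ± 0.08). Leaving out TG animal 1 of 17 dpi or TG animal 21 of 80 dpi, the 2 animals of the only direct array, left none called lower, and leaving out TG animal 27 of 80 dpi left 15. On the direct array red blood cell genes had a median of 1.35, skeletal muscle genes 0.69 and macrophage and microglia markers -0.43, and their part in the result was not tested. TG mice at 80 dpi and naive TG mice did not differ by the test in any member, with 0.0205% of all features called, 1 member at an unadjusted p under 0.05 and a member median of -0.05.

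**Figure D2:**
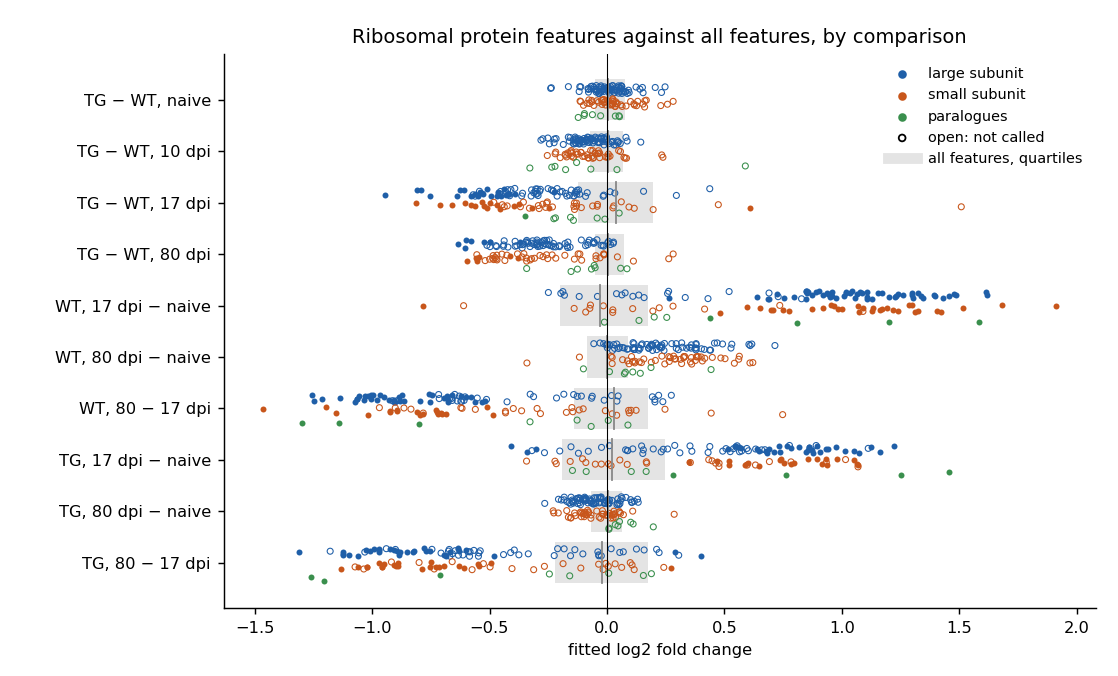
Fitted log2 fold changes of the member features in 10 comparisons, for large subunit genes (blue), small subunit genes (orange) and paralogues (green), with filled points for features called at an adjusted p under 0.05. The grey bars give the quartiles of all features and the grey lines their medians; most members lie above the bar for WT and TG at 17 dpi minus naive, and below it for 80 minus 17 dpi and for TG minus WT at 17 and 80 dpi.

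Between genotypes, ribosomal protein transcripts were lower in TG than in WT mice at 17 dpi. Of the member features, 40 were called lower and 1 higher, against 8.51% and 4.63% of all features. They came from 16 large subunit genes, 13 small subunit genes and the paralogue Rpl39l. The median was -0.29, or 1.22-fold, with -0.31 for the large and -0.28 for the small subunit, and 0.04 over all features. In title order none was called and the median was -0.04. The count moved with single animals: it fell to 11 when WT animal 4 was left out, to 19 for TG animal 3 and to 21 for TG animal 7, and grew to 68 when WT animal 1 was left out. With the 3 arrays of that time alone, none was called and the median was -0.47. Macrophage and microglia markers were lower on the same arrays, with list medians of -1.46, -1.76 and -1.32, and 14 of 15 measured genes of that list were called lower. Red blood cell genes were higher there, with list medians of 1.01, 1.29 and 1.83. Their part in the ribosomal protein result was not tested.

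Rplp0 had the lowest value of the members. Its feature 41227 (features carry the platform's own numbers) stood at -0.82 for TG animal 7 with WT animal 1, at -1.03 for TG 3 with WT 4 and at -1.06 for TG 7 with WT 4. All 3 arrays were thus far below the naive arrays of TG with WT, at 0.12, 0.04 and 0.11. The fitted difference was -0.94 ± 0.11, 1.92-fold (limma adjusted p = 7.1e-05). Rps20 gave -1.19, -1.27 and -0.68 on feature 41481, and a fitted -0.81 ± 0.16. Rpl22 gave -0.51, -1.36 and -0.71 on feature 4749, and a fitted -0.76 ± 0.14. On these features of both genes the naive arrays lay above all 3 arrays at 17 dpi. Their other features, 2700 of Rps20 and 35138 of Rpl22, were at 0.20 ± 0.08 and 0.16 ± 0.07, without a call. Rps15a was at -0.71 ± 0.15 on 1 feature and, as the only member called higher, at 0.61 ± 0.15 on the other. Rps2, a small subunit protein near the entry of the messenger RNA channel, was at -0.66 ± 0.10 on feature 16087. A further Rps2 feature, 5664, had 4.84 on the array of TG animal 3 with WT animal 4 and 0.18 and 1.14 on the other arrays at 17 dpi, and with a fitted 1.51 ± 0.53 it was not called.

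At 80 dpi the median difference was nearly the same size but fewer members passed the test. There, 14 member features were called lower and none higher, against 1.45% of all features called lower. The genes were 5 of the large and 6 of the small subunit. The member median was -0.28, or 1.22-fold, against 0.01 over all features. Of the 14 features, 13 were also called lower at 17 dpi. The 2 comparisons share no animal, but they are estimated in 1 fit and are linked through the arrays within a genotype. Leaving out any 1 of the 6 animals left between 0 and 2 called, while the median stayed between -0.33 and -0.25. The 4 arrays of that time alone gave 3 called and a median of -0.18. In title order 13 were called lower and 7 higher, and the median was -0.05. Macrophage and microglia markers had list medians of -0.80, -1.05, -1.40 and -0.89 on the 4 arrays, with 12 of 15 genes called lower. Meningeal genes were also lower there, at -0.48, -0.31, -0.34 and -0.36. Red blood cell genes were at 0.29, 0.95, 1.12 and 0.92, and neuron genes at 0.49, 0.37, 0.29 and 0.36. The part of these lists in the result was not tested.

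The lowest called feature at 80 dpi was feature 36012 of Rpl10, at -0.63 ± 0.15 (limma adjusted p = 0.0498), followed by Rpl22. Rpl22 stood at -0.43, -0.60, -0.65 and -0.62 on the 4 arrays, with a fitted -0.60 ± 0.12, 1.52-fold (limma adjusted p = 0.0203). The 4 arrays were close to each other and below all 3 naive arrays, at 0.06, 0.08 and 0.08. Rpl12, a large subunit protein at the base of the stalk, gave -0.24, -0.33, -0.77 and -0.38, with a fitted -0.60 ± 0.11. Rps18, of the small subunit head, ranged from -1.02 to 0.07 on feature 28027, with a fitted -0.59 ± 0.11. Rpl10, which joins the large subunit last and allows the subunits to meet, was at -0.58 ± 0.12 on its other feature, 14285, and Rps16 at -0.56 ± 0.12. In Rps18 and Rpl10 the array with TG in Cy5 was the lowest by far, and the fit placed part of this spread in the dye effect.

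In naive mice and at 10 dpi no difference between genotypes was called. In naive mice none of the 134 members passed, against 0% of all features, 2 members had an unadjusted p under 0.05 and the median was 0.02. In title order, however, the naive comparison called 17 members lower and 2 higher, with a median of -0.29. At 10 dpi no member passed, against 0.0274% of all features, 10 had an unadjusted p under 0.05 and the median was -0.08. The array of WT animal 10-4 with TG animal 1-3 stood apart there, with 123 of 134 members below 0 after removal of the dye effect. On that array the macrophage and microglia median was -1.59, against -0.48 to -0.17 on the other 3, and its part was not tested.

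The tests of the difference between times asked whether the genotype effect itself changed. Against naive mice, the genotype difference at 17 dpi was lower in 14 member features and higher in none, with 4.79% of all features called lower. The 5 lowest were Rplp0 at -0.98 ± 0.15 (limma adjusted p = 0.00126), Rps20 at -0.85 ± 0.21, Rps2 at -0.82 ± 0.14, Rps19 at -0.79 ± 0.13 and Rpl22 at -0.76 ± 0.18. Uncalled features of these genes were at 0.15 ± 0.11 (Rps20, 2700), 1.39 ± 0.69 (Rps2, 5664) and 0.08 ± 0.10 (Rpl22, 35138). For Rps19 they were at -0.65 ± 0.19 (43930) and -0.24 ± 0.12 (10511). Every feature of Rplp0 was called, and so was feature 20793 of Rps2, at -0.58 ± 0.12. Rps19 is needed for maturation of the small subunit, and its loss causes an anaemia in humans. The member median was -0.29, and 0.28 in title order, where none was called. The count was 2 without TG naive animal 5, 7 without TG naive animal 8 or WT naive animal 4, 9 without WT naive animal 2 and 41 without WT animal 1 of 17 dpi. At 80 dpi against naive, Rps9 (-0.70 ± 0.13) and Rps19 (-0.62 ± 0.13) were called lower, against 0.358% of all features, and neither was called when any 1 of the 12 naive or 80 dpi animals was left out. Between 17 and 80 dpi limma called no change of the genotype difference in any member, with 1.66% of all features called, 11 members at an unadjusted p under 0.05 and a median of 0.02. With array weights 8 members were called higher there.

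Of the stalk genes, Rplp0 was called and Rplp1 and Rplp2 were not, and no test compared them with each other. All 3 features of Rplp0 were called in WT at 17 dpi over naive, at 1.01 ± 0.13, 1.23 ± 0.16 and 1.13 ± 0.14. In TG mice they were at 0.20 ± 0.13, 0.35 ± 0.16 and 0.15 ± 0.14, and none was called. This difference between genotypes was itself called for each of them, at -0.81 ± 0.13, -0.87 ± 0.16 and -0.98 ± 0.15. Rplp1 and Rplp2, with 1 feature each, were at 0.69 ± 0.25 and 0.52 ± 0.18 in WT and at 0.44 ± 0.25 and 0.01 ± 0.18 in TG, without a call. Their genotype differences at 17 dpi were -0.32 ± 0.19 and -0.42 ± 0.13, and at 80 dpi -0.39 ± 0.17 and -0.38 ± 0.12. Rplp0 was called lower in TG at 80 dpi on all 3 features, at -0.50 ± 0.09, -0.52 ± 0.11 and -0.50 ± 0.10.

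Paralogues were read beside their main copies, and no test compared a paralogue with its main copy. Rpl22l1, the copy of Rpl22 that rises where Rpl22 is lost, was higher at 17 dpi in WT (1.20 ± 0.26) and in TG (1.25 ± 0.26). Its genotype difference was -0.01 ± 0.20 at 17 dpi and 0.09 ± 0.18 at 80 dpi. Rpl22 feature 4749 had -0.76 ± 0.14 and -0.60 ± 0.12 in these comparisons. The second Rpl22 feature, 35138, was near 0 in all 4, at 0.08 ± 0.10 and 0.16 ± 0.10 for EAE over naive in WT and TG, and at 0.16 ± 0.07 and -0.16 ± 0.06 for TG minus WT at 17 and 80 dpi. The difference between Rpl22 and Rpl22l1 therefore depended on the feature read for Rpl22, and it was not tested. Before the fit, Rpl22l1 gave -0.38, -1.29 and 0.52 at 17 dpi and 0.97, 0.89, -0.59 and 0.63 at 80 dpi. The sign followed the dye on these 7 arrays.

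Rps27l rose with Rps27 at 17 dpi, by 1.59 ± 0.22 against 1.41 ± 0.17 in WT and by 1.46 ± 0.22 against 1.05 ± 0.17 in TG. Rpl36al had 0.81 ± 0.17 in WT, below the 3 features of Rpl36a at 1.26 ± 0.13, 1.33 ± 0.21 and 1.34 ± 0.16. Rpl7l1 was at 0.20 ± 0.08 and 0.44 ± 0.13 in WT, the second of which was called, while the 3 features of Rpl7 were between 0.96 ± 0.27 and 1.30 ± 0.18. Rpl39l, at 0.14 ± 0.19 and 0.25 ± 0.12, was not called where Rpl39 was at 1.48 ± 0.27. In the genotype comparison at 17 dpi 1 feature of Rpl39l was called lower, at -0.35 ± 0.09, and it was the only paralogue feature called there. Rpl3 and Rpl3l were not called in either genotype at 17 dpi, at 0.43 ± 0.21 and -0.01 ± 0.28 in WT. Over the 8 paralogue features the median was 0.35 in WT and 0.22 in TG at 17 dpi over naive, with 4 called higher in each.

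**Figure D3:**
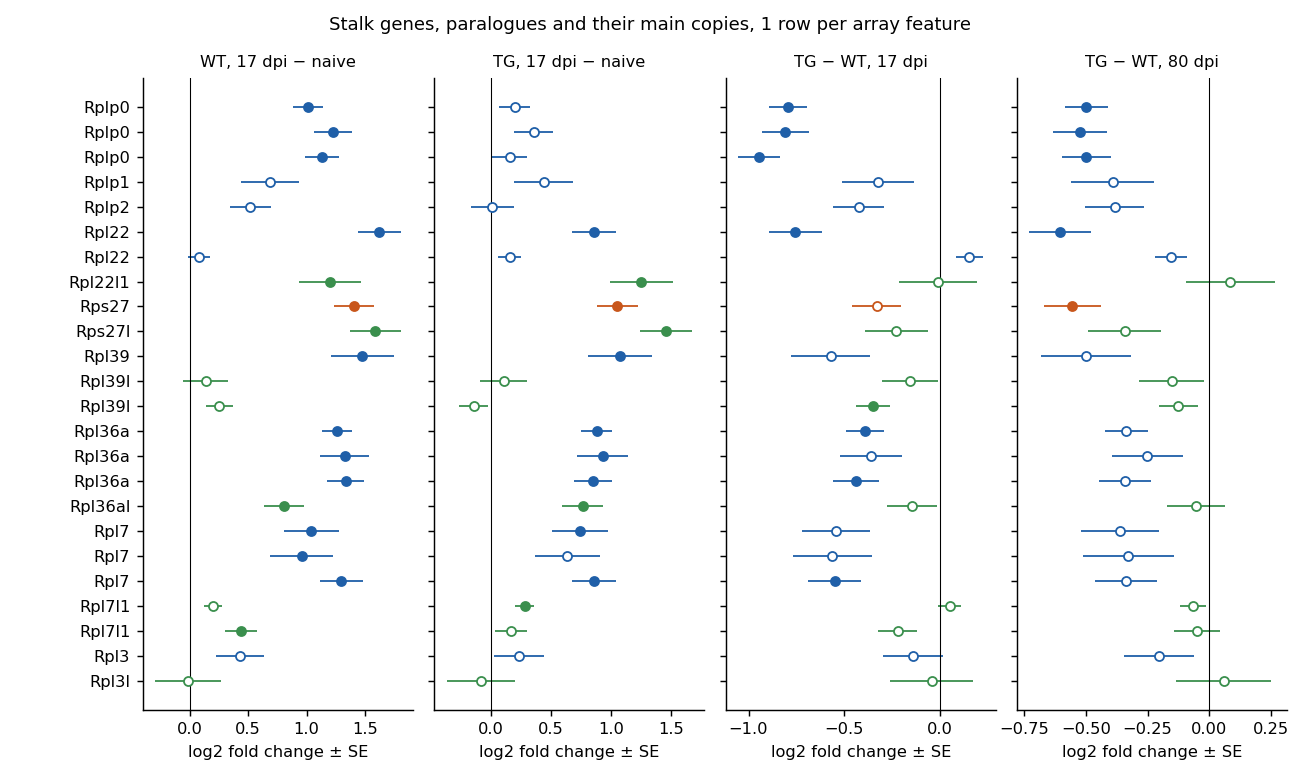
Fitted log2 fold change and its SE for each feature of the stalk genes (Rplp0, Rplp1, Rplp2), the paralogues (green) and their main copies (blue for large, orange for small subunit), in 4 comparisons. Filled points were called; Rplp0 is near 1 in WT and below 0.4 in TG at 17 dpi over naive, and Rpl22l1 is near 0 in both TG minus WT panels while 1 feature of Rpl22 is at -0.76 and -0.60.

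Rpl3l, which replaces Rpl3 in striated muscle, stood out on 2 arrays at 10 dpi. It was at 0.99 and 1.61 on the 2 arrays of TG animal 1-5, and at -0.26 and 0.01 on the other 2. Skeletal muscle genes had medians of 2.03 and 2.19 on the same 2 arrays after removal of the dye effect, against -0.13 and -0.06 on the others. The fitted difference at 10 dpi, 0.59 ± 0.21, was not called. At 80 dpi the muscle median reached 0.68 on the array of TG animal 21 with WT animal 15, where Rpl3l was at 0.04.

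**Figure D4:**
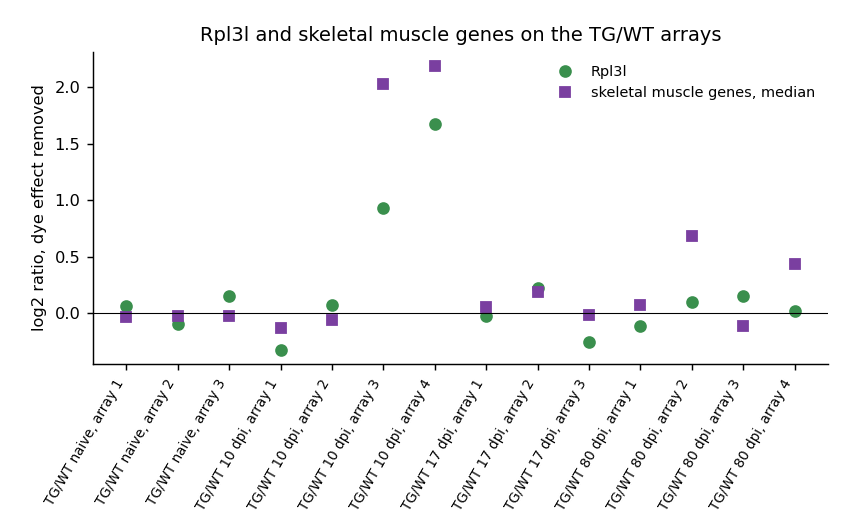
Log2 ratio of Rpl3l (green) and median ratio of 16 skeletal muscle genes (purple) on the 14 arrays of TG with WT, with the dye effect removed. Both are highest on arrays 3 and 4 of 10 dpi, the arrays of TG animal 1-5.

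Features of a single gene often disagreed. Of the 42 genes with 2 to 4 features, 22 had features more than 0.5 apart in WT at 17 dpi over naive, and 15 had features more than 1 apart. Rps15a had 1.68 ± 0.20 on feature 631 and -0.78 ± 0.19 on feature 5957, both listed under the same RefSeq accession. Rps20 had 1.91 ± 0.21 and 0.20 ± 0.11. In Rplp0, Rpl10, Rpl36a and Rpl34 all features lay within 0.214 of each other. The kind of accession went with the value: 87 of 110 features listed under a RefSeq mRNA were called higher, with a median of 0.96, but 5 of 24 features under other or no accessions, with a median of 0.00. Of the 14 features at or below 0, 12 were of the second kind. Whether these features read the named transcript, a pseudogene or another region cannot be told from ratios.

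**Figure D5:**
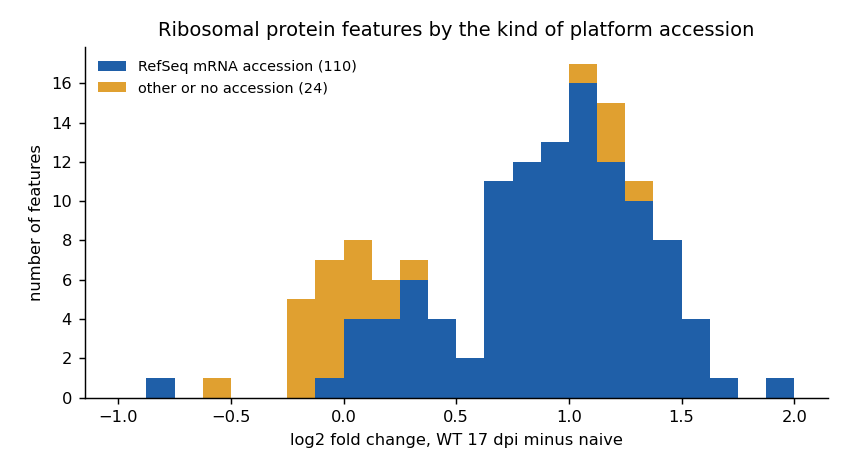
Number of member features by log2 fold change in WT at 17 dpi minus naive, stacked by whether the platform lists them under a RefSeq mRNA (110) or under another or no accession (24). The first kind centres near 1 and the second near 0.

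Other genes of the translation machinery were read from fixed lists, with no test against the ribosomal proteins. Fau, whose product is cut to a small subunit protein, was higher in WT at 17 dpi over naive by 1.13 ± 0.13, and Rpsa, a small subunit protein at the cell surface as well, by 0.74 ± 0.13 and 0.60 ± 0.16. Both were lower in TG than in WT at 17 dpi, Fau at -0.59 ± 0.10 and 1 of 2 Rpsa features at -0.37 ± 0.10. Of 17 other TOP genes, 8 had a feature called higher and 3 a feature called lower in WT at 17 dpi over naive, with a list median of 0.25, where 8.42% and 7.8% of all features were called. These shares are of single features, whereas the list counts are of genes, and are not a like measure. The initiation factor subunit Eif3e was highest, at 1.62 ± 0.26, the poly(A)-binding protein gene Pabpc1 was next, at 1.39 ± 0.20, and the elongation factor genes Eef2 (-1.72 ± 0.44) and Eef1d (-0.78 ± 0.16) were lowest. At 17 dpi 7 of the 17 were called lower in TG than in WT, with Pabpc1 lowest at -1.15 ± 0.15, and none higher. Of all features, 8.51% were called lower and 4.63% higher in that comparison.

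Of 35 measured genes that build the ribosome, 9 were called higher and 2 lower in WT at 17 dpi over naive, where 8.42% and 7.8% of all features were called. Counts of the lists are of genes, some of which have several features, so these shares of single features are not a like measure. The list median was -0.01, against -0.03 over all features. Nhp2, of the pseudouridylation complex, was highest at 1.05 ± 0.11, and Nip7, a large subunit assembly factor, was next at 0.97 ± 0.15. Between genotypes at 17 dpi 2 were called lower and 1 higher, against 8.51% and 4.63% of all features, with a median of 0.01. Of 14 measured genes that control TOP translation or ribosome production, 3 were called higher and 4 lower in WT at 17 dpi over naive. Eif4ebp1, an mTOR-controlled repressor of cap-dependent initiation, was highest at 1.29 ± 0.28, Larp1, which binds TOP ends, had -0.74 ± 0.11 on its lowest feature, and Rptor, the partner of mTOR, had -1.31 ± 0.34. Over the same comparison 13 of 15 macrophage and microglia marker genes were called higher, with a median of 2.16, and 8 of 14 neuron genes and 6 of 9 oligodendrocyte genes were called lower. In TG at 17 dpi over naive 4 of 15 macrophage and microglia genes were called higher, against 6.88% of all features, with a median of 0.59. Their part in the ribosomal protein results was not tested.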

How the data were processed

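RNA from spinal cords was compared on 20 two-colour arrays. The values deposited by the authors are log ratios of 44290 features, read here as log2, since no source used here states the base. Per the labels' design text, arrays were normalized within the array by global loess and between arrays by the quantile method of limma. Background correction and filters: not given in the sources used here. Gene symbols came from the platform annotation, in which 32042 features had 1 symbol, 47 several and 12201 none listed.

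Each feature was fitted over all arrays (R 4.3.3, limma 3.58.1) with 1 term per group and a dye effect, allowing a correlation between arrays that share an animal. This correlation was estimated at 0, the lowest value searched, so arrays sharing an animal were treated as independent. Each SE and p-value thus rests on the spread between arrays and not on the spread between mice alone. Variances were moderated with 1.89 prior degrees of freedom beside 13 residual. A value missing on an array was left out of that feature's fit. The fit was tested on simulated data. Lists got counts and medians only. Named genes were the stalk genes, the paralogues with their main copies, Rpsa and Fau, and the 5 highest and 5 lowest called members of each comparison, 1 feature per gene, and of the other lists the 2 highest and 2 lowest called. The members, lists and the reading of the ratios were chosen with earlier results of these data known. The number of arrays limits the precision. The labels give animals but do not say whether extracts were pooled. Alternatives were title order, no dye effect, no correlation or 0.2, features averaged per gene, arrays scaled to 1 spread, array weights, features with a value on every array, the arrays of 1 time alone, and each animal left out.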

Additional observations from a re-analysis of the deposited data

Results flagged for a closer look

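Among the 61 sets of 4 array values tested for a value far from the others, 2 met the criterion, and chance alone gives about 5% of such sets. With the dye effect removed, Rps18 (feature 28027) at 80 dpi was at -0.30 on the array of TG animal 26 with WT animal 13, while the other 3 arrays were at -0.67, -0.65 and -0.64. Rps4x (feature 26954) at 80 dpi was at -0.57 on the array of TG animal 26 with WT animal 15, against -0.31, -0.31 and -0.29.

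The genotype difference itself differed between 17 dpi and naive mice for 5 named genes, by the limma interaction test. The values were -0.98 for Rplp0, -0.85 for Rps20, -0.82 for Rps2, -0.79 for Rps19 and -0.76 for Rpl22. For each of these genes except Rplp0, some other feature of the gene was not called. Between 80 dpi and naive mice it differed for Rps9, by -0.70, and for Rps19, by -0.62. Neither call held when any naive or 80 dpi animal was left out. The Rps19 feature, 37565, was not called in TG minus WT at 80 dpi (-0.34) or in naive mice (0.28). Its features 43930 and 10511 were at -0.56 and 0.01 in the test between 80 dpi and naive mice, without a call.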

How the results depend on the processing

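No paired analysis was possible because replicate numbers only count arrays and the animal numbers of TG and WT mice do not pair them. This refers to pairs taken from those numbers. Within an array, each ratio already compares the animals hybridised together, and the fit used these ratios. The estimated correlation was 0, so the fit with no correlation was the same fit. A correlation of 0.2 was chosen after seeing the data. Array weights moved 10 of 14 counts of members by over 1.5 times and title order 9 of 14, while title order moved or turned the most medians and named genes. The cause of each change was not tested. No share of all features called is given for these settings. A changed count of members thus cannot be told from a change over all features. The number of arrays and the lack of signal levels limit every value: a dim feature cannot be told from a bright one.

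With array weights, 97 members were called higher in TG at 17 dpi over naive, 72 higher in WT at 80 dpi over naive and 3 higher in naive TG than WT. Weights gave 90 lower in TG than WT at 80 dpi, 97 and 99 lower at 80 than 17 dpi in WT and TG, and 5 lower in TG at 80 dpi than naive. They gave 56 and 80 lower for the genotype difference at 17 and 80 dpi over naive, and 8 higher for 80 over 17 dpi. With arrays scaled to 1 spread, the counts were 12 lower in TG than WT at 17 dpi, 34 higher in TG at 17 dpi over naive, 27 and 18 lower at 80 than 17 dpi in WT and TG, 1 higher in WT at 80 dpi over naive, and 7 and 1 lower for the genotype difference at 17 and 80 dpi over naive. With a correlation of 0.2, 17 and 2 members were lower in TG than WT at 17 and 80 dpi, 39 lower at 80 than 17 dpi in WT, 37 higher in TG at 17 dpi over naive, and 7 and 0 lower for the genotype difference at 17 and 80 dpi over naive. With no dye effect these were 15 and 5, 29, 17, and 8 and 0, and 22 were lower at 80 than 17 dpi in TG. With the arrays of that time only, 0 and 3 were lower in TG than WT at 17 and 80 dpi.

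With features averaged per gene, 23 genes were lower in TG than WT at 17 dpi, 41 lower at 80 than 17 dpi in WT, 3 higher in WT at 80 dpi over naive, and 6 lower for the genotype difference at 17 dpi over naive. Directions that turned against the single feature were, for TG minus WT at 17 dpi, Rpl22 (-0.30), Rps15a (-0.049) and Rps2 (0.11), for WT at 17 dpi over naive Rps15a (0.45) and Rps4x (0.64), and for TG at 17 dpi over naive Rpl11 (0.23), Rpl13 (0.22) and Rpl35a (0.57). For TG at 80 minus 17 dpi they were Rpl11 (-0.34), Rpl35a (-0.52) and Rps12 (-0.31), and for the genotype difference at 17 dpi over naive Rps2 (0.0041).

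In title order, 2 members were called higher in naive TG than WT and 2 lower at 10 dpi. None was called lower in TG than WT at 17 dpi, higher at 17 dpi over naive or lower at 80 than 17 dpi in either genotype, or lower for the genotype difference at 17 or 80 dpi over naive (0 in each). The medians turned to -0.11 for WT at 17 dpi and -0.68 for WT at 80 dpi over naive, and to 0.28 and 0.24 for the genotype difference at 17 and 80 dpi over naive. For TG minus WT at 17 dpi, Rpl22 (0.0016), Rpl36a (0.084), Rpl39l (0.18) and Rps15a (0.11) turned, and at 80 dpi Rpl22 (0.27), Rpl22l1 (-0.89), Rpl39l (0.45), Rplp0 (0.19 and 0.35), Rplp1 (0.63) and Rps4x (-0.46). For WT at 17 dpi over naive, these were Rpl10 (-0.42 and -0.44), Rpl22 (-0.061), Rpl22l1 (-0.23), Rpl35 (-0.11), Rpl36a (-0.11), Rpl36al (-0.039), Rpl39 (-0.15), Rpl7l1 (-0.21), Rplp0 (-0.24, -0.54 and -0.26), Rps15a (0.026), Rps20 (-0.21), Rps27 (-0.41), Rps27l (-0.31) and Rps4x (-0.17). For TG at 17 dpi over naive it was Rpl7l1 (-0.074). For the genotype difference at 17 dpi over naive, Rpl22 (0.40), Rplp0 (0.15), Rps19 (0.20), Rps2 (0.015) and Rps20 (0.52) turned, and at 80 dpi Rps19 (0.33) and Rps9 (0.35).

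Leaving out 1 animal gave 11 to 68 members lower in TG than WT at 17 dpi, 0 to 2 at 80 dpi and 0 to 1 at 10 dpi. It gave 75 to 101 higher in WT and 0 to 76 higher in TG at 17 dpi over naive, and 10 to 69 and 0 to 79 lower at 80 than 17 dpi in WT and TG. The genotype difference over naive was lower in 2 to 41 members at 17 dpi and 0 at 80 dpi, and higher at 80 than 17 dpi in 0 to 2. No called named gene changed direction in these fits, and 318 of 528 values stayed past the threshold. Among 149 named values, 41 lost their call with no dye effect, 31 with arrays scaled, 27 with a correlation of 0.2 and 57 in title order.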
